A study of Mus musculus with 12 samples.

Results

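The 10 genes described here encode the transcriptional coactivators YAP (Yap1) and TAZ (Wwtr1), their DNA-binding partner TEAD1 (Tead1), 3 proteins that act on them (Lats2, Amotl2 and Ajuba) and 4 genes known as their transcriptional targets (Ccn1, Ccn2, Ankrd1 and Axl). They were taken by gene symbol, all 10 were found among the 40384 genes of the deposited table, and all 10 passed the filter on low values that left 17114 genes for testing. The table holds polyadenylated RNA of 12 libraries of mouse cells, in 4 groups of 3. The iPSC group was labelled as induced pluripotent stem cells. The other 9 libraries came from 4F2A cells, in which doxycycline switches on transgenes of Pou5f1, Sox2, Klf4 and Myc, the factors used to reprogram cells. D4_DUX was day 4 of reprogramming with the treatment OE-DUX, in which Dux was overexpressed for 48 h. D4 was day 4 with the treatment OE-NC, taken here as the overexpression control, and MEF was the embryonic fibroblasts themselves. The culture text is shared by every sample: fibroblasts of mid-gestation male homozygous 4F2A embryos, in a serum-replacement medium with LIF at 1000 U/mL and doxycycline at 2 μg/mL. The labels do not say whether the 3 libraries of a group were separate cultures or whether embryos were pooled, so the p-values measure the spread between these libraries, which may be technical.

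YAP and TAZ bind no DNA themselves and act through TEAD factors. In the Hippo pathway the MST kinases activate LATS1 and LATS2, which phosphorylate YAP and TAZ and keep them in the cytoplasm, where they are degraded. Spread, tense fibroblasts on a stiff surface hold YAP and TAZ in the nucleus, and the targets CCN1 and CCN2 are matrix-associated proteins of such cells. Several regulators, LATS2 and AMOTL2 among them, are themselves targets, which gives the pathway negative feedback. The libraries measured messages and not the location or phosphorylation of YAP.

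TEAD factors recognise the core CATTCC, which reads GGAATG on the other strand. It was searched on both strands in the window of 250 bases before to 50 after each annotated start, in RefSeq promoter sequences of GRCm38.p6, and no other motif was searched. Of the 10 genes, 8 had a window, and all 8 held the core in at least 1 window, against 16.6% of 27025 genes. Ccn2 and Tead1 had no window. Over windows, 9 of the 10 of these genes held it, against 14.7% of 32851. The core lay 103 bases before the start in Ccn1, 65 in Amotl2, 136 in the Wwtr1 window printed here, 141 in Yap1 and 233 in Axl. Ankrd1 held it at 210 and 123 bases and Ajuba at 186 and 164. In Lats2 it lay just after the start in 1 window and was absent from the other. A match of letters is a description and not a measured binding site. The sequences are, 5′ to 3′ on the gene's strand, the 250 bases before the start of a coactivator gene, a regulator and a pair of targets, with the core in capitals. Each lies outside the GENCODE M21 span of its own gene, and overlap with other genes is not reported here.

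Wwtr1, chr3:57575911-57576160, minus strand: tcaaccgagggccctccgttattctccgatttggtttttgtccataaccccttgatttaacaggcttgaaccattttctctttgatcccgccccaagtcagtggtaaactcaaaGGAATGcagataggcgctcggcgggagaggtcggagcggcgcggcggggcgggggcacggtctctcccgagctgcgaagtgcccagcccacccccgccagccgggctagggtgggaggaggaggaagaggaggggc
Ajuba, chr14:54577662-54577911, minus strand: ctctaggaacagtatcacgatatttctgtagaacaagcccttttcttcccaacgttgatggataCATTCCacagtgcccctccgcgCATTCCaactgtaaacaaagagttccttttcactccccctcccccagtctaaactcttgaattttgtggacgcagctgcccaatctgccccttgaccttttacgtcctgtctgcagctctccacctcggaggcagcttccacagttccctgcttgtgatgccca
Ccn1, chr3:145649986-145650235, minus strand: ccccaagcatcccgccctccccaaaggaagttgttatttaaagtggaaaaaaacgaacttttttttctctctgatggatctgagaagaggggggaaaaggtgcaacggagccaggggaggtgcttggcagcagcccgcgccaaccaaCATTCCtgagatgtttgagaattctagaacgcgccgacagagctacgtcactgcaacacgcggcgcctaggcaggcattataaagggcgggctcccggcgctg
Axl, chr7:25788734-25788983, minus strand: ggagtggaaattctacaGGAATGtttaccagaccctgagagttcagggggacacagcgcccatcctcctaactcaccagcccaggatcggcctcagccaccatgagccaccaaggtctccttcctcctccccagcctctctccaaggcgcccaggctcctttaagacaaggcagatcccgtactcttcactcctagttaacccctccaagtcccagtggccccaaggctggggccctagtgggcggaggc

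Values are FPKM, fragments per length of gene, scaled to the library's total of counted fragments, so levels can be set side by side between genes. Depth, recovered from the smallest step of the FPKM values, was 22530000 to 28140000 counted fragments per library. Ankrd1 rested on 195.6 to 872.4 fragments per library and every other member on at least 869.6. The overexpressed gene could not be checked as labelled: Duxf3, the annotated Dux gene, was listed at 0 in all 3 libraries labelled D4_DUX, and was at or under 0.0247 FPKM in the other 9, below the floor of 3 fragments (0.0395 to 0.0494 FPKM). D4_DUX therefore stands throughout for the libraries labelled so. Markers of the labelled types gave summed pluripotency levels of 1477 to 1631 FPKM in iPSC and 4.66 to 5.92 in MEF. Summed fibroblast markers were 1122 to 1390 FPKM in iPSC and 6737 to 6956 in MEF. Summed macrophage markers were 177 to 216 FPKM in iPSC, 49.9 to 50.9 in D4_DUX, 192 to 227 in D4 and 1607 to 1653 in MEF. In such bulk libraries fewer cells of a type and less RNA per cell cannot be told apart.

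Both coactivator genes were expressed in every library, and they differed in how much they varied. Yap1 (chromosome 9, 7931999 to 8004596) had 20.6, 20.2 and 19.7 FPKM in iPSC, 24.3, 23.3 and 24.3 in D4_DUX, 22.4, 21.6 and 22.1 in D4, and 20.3, 18.7 and 20.1 in MEF. The day 4 groups lay above the others, and iPSC and MEF overlapped. An annotated gene of the opposite strand, Gm20416, overlaps Yap1 and had 12.75 to 17.07 FPKM over the 12 libraries. Wwtr1 (chromosome 3, 57455649 to 57575910) had 23.8, 23.8 and 20.9 FPKM in iPSC, 67.4, 65.6 and 64.4 in D4_DUX, 61.2, 59.1 and 61.3 in D4, and 32.3, 33.9 and 33.1 in MEF. None of its 4 groups overlapped, and the order was D4_DUX, D4, MEF and iPSC. TAZ messages made up 51.6 to 54.2% of the Yap1 and Wwtr1 sum in iPSC, 72.6 to 73.8% in D4_DUX, 73.2 to 73.5% in D4 and 61.4 to 64.4% in MEF. D4_DUX and D4 overlapped in this share, and both lay above MEF and iPSC.

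Tead1 (chromosome 7, 112679318 to 112906807) had 32.8, 32.6 and 32.2 FPKM in iPSC, 25.7, 25.7 and 25.3 in D4_DUX, 27.2, 25.6 and 29.5 in D4, and 30.8, 29.8 and 29.5 in MEF. It was the largest of the 4 TEAD messages in every group by mean, with 53.1 to 53.4% of their sum in iPSC and 41.8 to 43.3% in D4_DUX. The summed level of Tead1 to Tead4 lay in a narrow range as deposited, at 60.7 to 61.4 FPKM in iPSC, 59.3 to 60.5 in D4_DUX, 59.9 to 64.1 in D4 and 60.7 to 63.1 in MEF. What differed was its composition. Tead4, the TEAD factor known from trophectoderm, was 7.34 to 8.14% of the sum in iPSC, 10.9 to 12.7% in D4_DUX, 9.98 to 10.9% in D4 and 1.18 to 1.59% in MEF. Tead3 was 5.18 to 5.31% of it in iPSC and 19.3 to 20.7% in MEF.

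**Figure D1:**
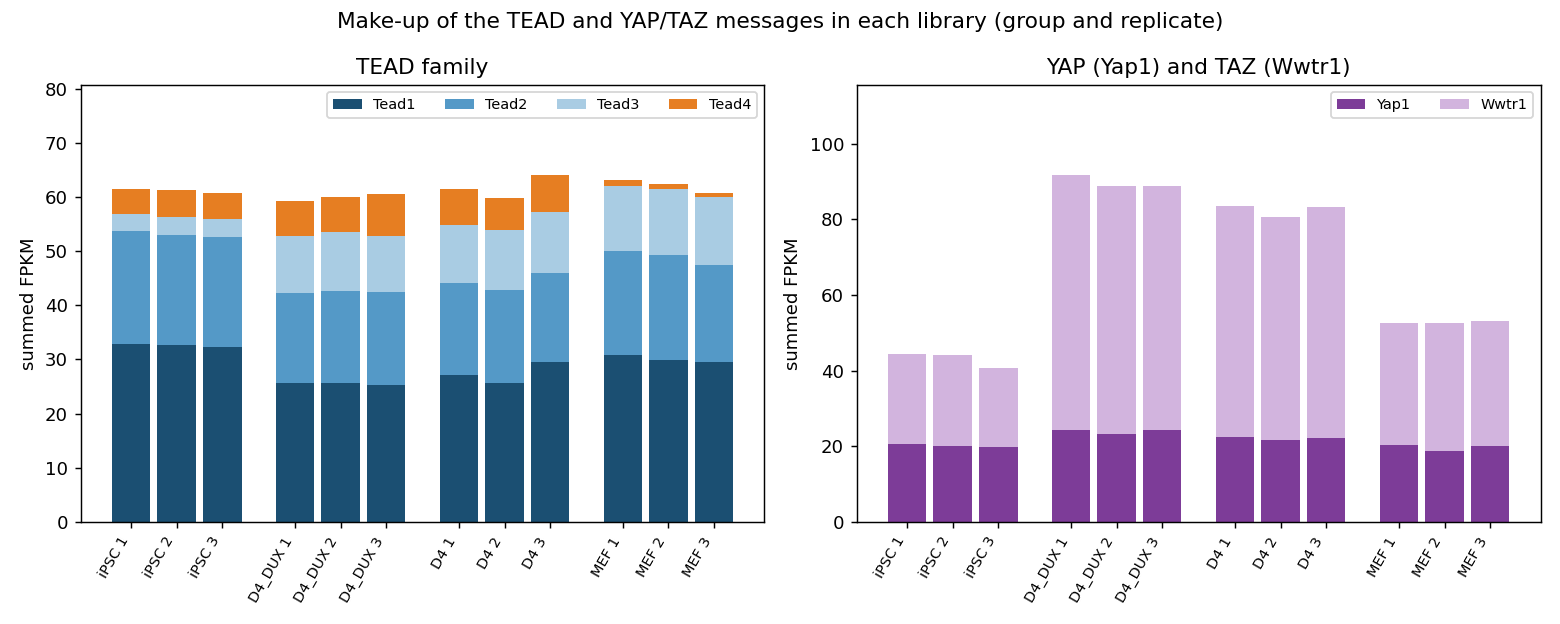
Summed FPKM (vertical axes) of Tead1 to Tead4 (left) and of Yap1 and Wwtr1 (right) in each of the 12 libraries, iPSC, D4_DUX, D4 and MEF from left to right, with 1 stacked bar per library. TEAD bars stand at similar heights (59.3 to 64.1 FPKM) with a Tead4 segment that is thin in MEF, while the Yap1 and Wwtr1 sum is 88.7 to 91.7 FPKM in D4_DUX and 52.5 to 53.2 in MEF.

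Regulators came next. Lats2 (chromosome 14, 57689662 to 57758388), the kinase that phosphorylates YAP and TAZ, had 10.05, 10.03 and 9.27 FPKM in iPSC, 15.4, 15.6 and 15.7 in D4_DUX, 18.1, 18.4 and 18.2 in D4, and 12.4, 13.1 and 12.8 in MEF. Its groups did not overlap, with D4 highest and iPSC lowest. It made up 61.5 to 63.0% of the Lats1 and Lats2 sum in D4_DUX, 65.4 to 67.8% in D4 and 47.8 to 50.9% in MEF. A protein-coding gene of the same strand, Gm49361, overlaps Lats2 in the annotation and averaged 16.1 FPKM in D4_DUX and 18.6 in D4, so the division of reads between them is uncertain.

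Amotl2 (chromosome 9, 102716672 to 102733418), a junction scaffold that binds YAP and restrains it, had 33.8, 31.5 and 31.3 FPKM in iPSC, 66.0, 67.5 and 63.9 in D4_DUX, 105.3, 103.8 and 107.4 in D4, and 73.9, 77.8 and 76.0 in MEF. Again no groups overlapped, and D4 was highest. Ajuba (chromosome 14, 54567472 to 54577558), a LIM protein that inhibits LATS, had 47.5, 44.7 and 45.1 FPKM in iPSC, 14.8, 12.7 and 12.2 in D4_DUX, 10.6, 9.79 and 11.6 in D4, and 10.95, 11.48 and 12.45 in MEF. All 3 iPSC libraries stood far above the other 9, while MEF overlapped both day 4 groups. With its relatives Limd1 and Wtip, Ajuba made up 77.4 to 78.4% of the summed level in iPSC and 41.2 to 45.9% in MEF.

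Of the targets, Ccn1 (chromosome 3, 145646976 to 145649981), which encodes the matrix protein CYR61, had 182.6, 179.5 and 166.2 FPKM in iPSC, 201.7, 214.2 and 198.9 in D4_DUX, 420, 465 and 454.9 in D4, and 320, 338.5 and 312.5 in MEF. D4 was highest and iPSC lowest, with no overlap between groups. Ccn2 (chromosome 10, 24595442 to 24598683), which encodes connective tissue growth factor, had 51.1, 43.4 and 35.8 FPKM in iPSC, 49.6, 57.2 and 55.0 in D4_DUX, 168.5, 184.3 and 164.0 in D4, and 167.0, 193.1 and 164.3 in MEF. Its libraries fell into a low pair of groups, iPSC and D4_DUX, and a high pair, D4 and MEF, with overlap inside each pair. An annotated gene of the opposite strand, Gm15270, overlaps Ccn2 and averaged 15.0 FPKM in iPSC, 19.2 in D4_DUX, 57.8 in D4 and 57.4 in MEF. The library kit keeps the strand, but the sources used here do not say whether counting used it, so reads of the pair cannot be told apart.

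Ankrd1 (chromosome 19, 36111961 to 36120099), a nuclear ankyrin-repeat protein, was the lowest of the 10 genes by mean in D4_DUX, D4 and MEF, with 12.58, 12.04 and 9.22 FPKM in iPSC, 2.55, 3.07 and 3.19 in D4_DUX, 4.97, 5.23 and 4.70 in D4, and 8.19, 9.29 and 9.27 in MEF. D4_DUX lay lowest, and iPSC replicate 3 lay among the MEF libraries. Axl (chromosome 7, 25757273 to 25788705), a receptor tyrosine kinase for GAS6, had 67.0, 62.0 and 53.1 FPKM in iPSC, 167.5, 166.9 and 167.0 in D4_DUX, 186.0, 186.7 and 182.0 in D4, and 130.4, 126.0 and 126.9 in MEF. Its 4 groups did not overlap, with D4 highest and iPSC lowest.

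**Figure D2:**
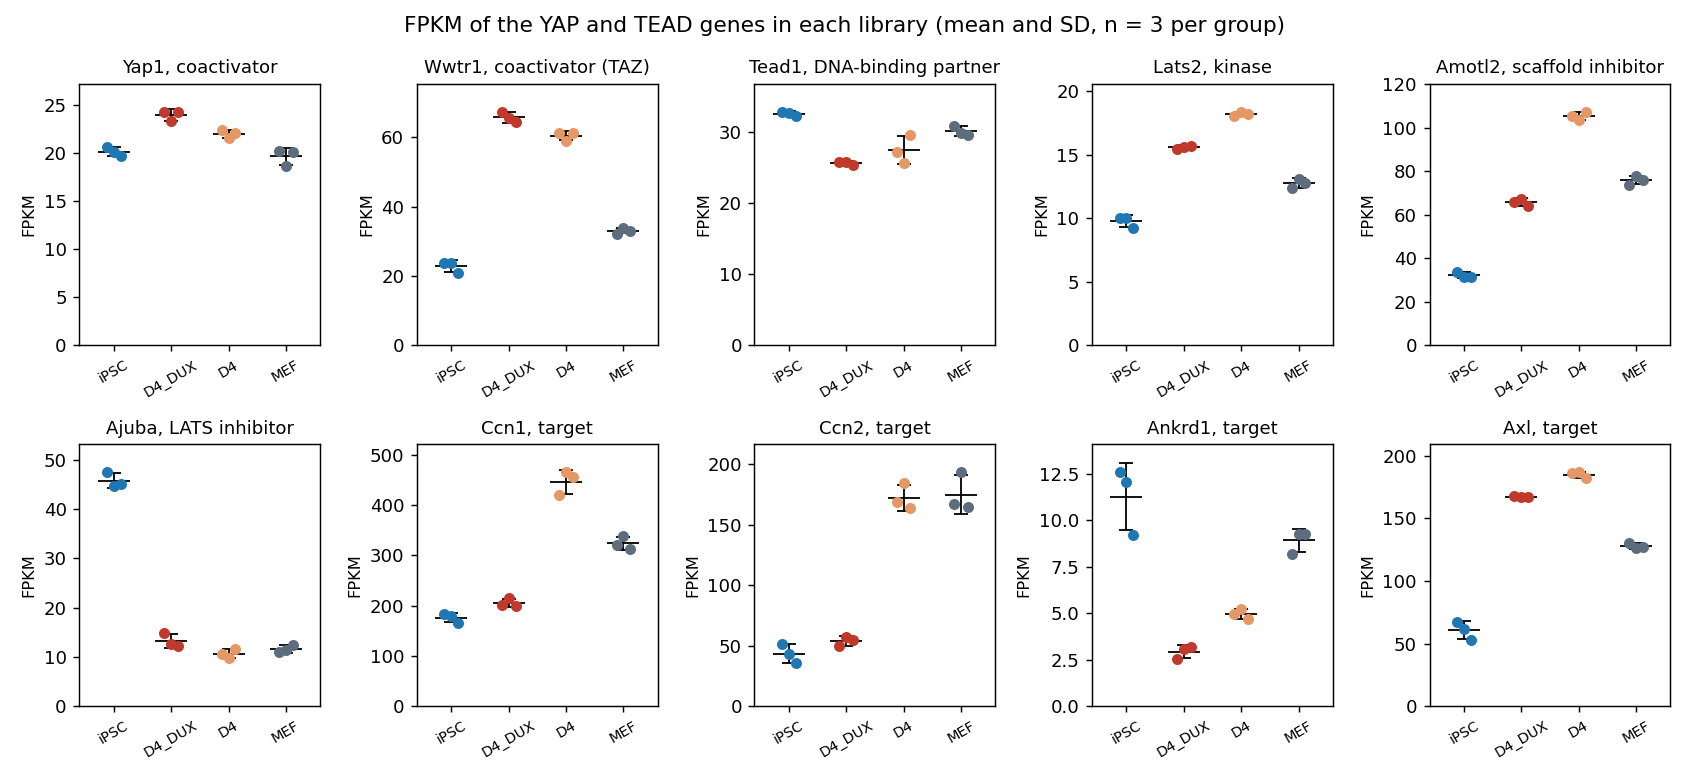
FPKM (vertical axes, linear from 0) of each of the 10 genes by group, with 1 point per library and the mean and SD (n = 3 per group) as bars. Ccn2 separates iPSC and D4_DUX (35.8 to 57.2 FPKM) from D4 and MEF (164.0 to 193.1 FPKM), whereas Ajuba sets iPSC apart (44.7 to 47.5 FPKM) from all other libraries.

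The comparison of D4_DUX with D4 sets the day 4 libraries labelled OE-DUX beside those labelled OE-NC. The secreted targets were lower in D4_DUX while the coactivator genes were not. Ccn2 averaged 53.9 ± 3.93 FPKM in D4_DUX and 172.3 ± 10.7 in D4 (SD, n = 3 each), and its log2 fold change was -1.66 (SE 0.11, limma, Benjamini-Hochberg adjusted p = 1.85e-06). For Ccn1 it was -1.12 (SE 0.05, adjusted p = 2.02e-07). All log2 fold changes are on the log2(FPKM + 1) scale, which understates changes of low genes, and the threshold for a higher or lower call was an adjusted p under 0.05 over all genes tested.

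Amotl2 fell by 0.67 (SE 0.04, adjusted p = 4.84e-07), Ankrd1 by 0.60 (SE 0.10, adjusted p = 0.00103) and Lats2 by 0.21 (SE 0.04, adjusted p = 0.00103) on the log2 scale. Ajuba was higher by 0.28 (SE 0.07, adjusted p = 0.0125), and Yap1 by 0.12 (SE 0.04, adjusted p = 0.027). The Yap1 call was lost on leaving out D4_DUX replicate 1 or 3 or D4 replicate 2 or 3 (adjusted p 0.0565 to 0.0879). It was also lost under median-ratio scaling (0.0677) and quantile normalization (0.227), but not after rescaling to TPM. The Ajuba call was lost with only the 2 groups in the fit (0.0568). Not past the threshold were Wwtr1 (0.12, adjusted p = 0.0678), Axl (-0.14, 0.103) and Tead1 (-0.10, 0.111). For Axl and Wwtr1 the D4_DUX and D4 libraries nevertheless did not overlap, and both passed with only those groups in the fit (0.00397 and 0.0185). Axl also passed under median-ratio scaling (0.0455) and without iPSC replicate 1 or 3 (0.0323 and 0.00589), Wwtr1 without iPSC replicate 3 (0.0113), and Tead1 under quantile normalization (0.0475) and without D4 replicate 2 (0.0169).

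Of the 10 genes, 2 were higher and 5 lower in D4_DUX, where 20.1% of all genes tested were higher and 15.4% lower. Groups did not overlap for 3 higher and 6 lower members, against 28.5% and 21.9% of all genes. The members' median log2 fold change was -0.178, and that of all genes 0.021. Among 16 other genes of a published YAP and TAZ target signature, 3 were higher and 7 lower, with a median of -0.143. F3, tissue factor, had a log2 fold change of -0.89, the stress gene Gadd45a -0.82, the ligand gene Tgfb2 -0.49 and Nt5e, the ecto-nucleotidase CD73, -0.42. Of 26 other Hippo pathway genes, 9 were higher and 1 lower, and Ptpn14 stands in both lists. The 26 pool 17 core kinases and scaffolds (7 higher, 1 lower) with 9 genes listed as inhibitors by binding or by LATS inhibition (2 higher). They therefore need not act on YAP in the same direction. Those 2 were Ptpn14 and Strn (0.23, limma, adjusted p = 0.00137). The Ptpn14 call (adjusted p = 0.0485) was lost under most other settings, such as median-ratio scaling (0.115) and quantile normalization (0.206), and without most single libraries. That of Stk4, also among the higher, was lost under quantile normalization (0.0546) and without D4_DUX replicate 1 (0.0639) or D4 replicate 2 (0.0503). Nf2, which encodes the upstream activator merlin, averaged 16.0 FPKM in D4_DUX and 11.4 in D4 (0.46, adjusted p = 2.54e-06), and the scaffold gene Wwc1 was higher by 0.48. Dchs1, a giant protocadherin, was the gene that fell, at 1.85 FPKM in D4_DUX and 4.72 in D4 (-1, adjusted p = 2.03e-06). Of the 4 tested TEAD and Vgll relatives 0 passed with limma, 0 also had an unadjusted p under 0.05, and Tead3 passed under quantile normalization.

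Other gene groups moved with this difference, in which 20.1% of all genes tested were higher in D4_DUX and 15.4% lower. Of 13 tested immediate early genes, which answer serum and growth factors within minutes to hours, 10 were lower in D4_DUX, with a median of -0.635, and their summed level was 302.8 to 313.9 FPKM in D4_DUX and 477.8 to 527 in D4. Of 16 macrophage markers 15 were lower (median -1.185), at the summed levels given above, none of them at 0 in all libraries of either group. Fibroblast markers were lower for 5 of 12, with sums of 3177 to 3255 FPKM in D4_DUX and 3992 to 4151 in D4. Epithelial markers were higher for 5 of 9, with sums of 28.4 to 30 FPKM in D4_DUX and 10.9 to 11.9 in D4, Esrp1 being listed at 0 in D4_DUX. Of these 5, Epcam (0.250 FPKM in D4_DUX) and Cldn4 (0.876) averaged under 1 FPKM in both groups. Krt18 went lower without overlap, at 1.72 FPKM in D4_DUX and 2.195 in D4, but did not pass with limma (adjusted p = 0.0576). Of 8 smooth muscle and mesothelial markers, 2 were higher and 3 lower in D4_DUX, with sums of 883.3 to 896.1 FPKM in D4_DUX and 795.1 to 859.6 in D4, and none was at 0 in all libraries of either group. The higher ones were the mesothelial genes Msln, at 469.1 FPKM in D4_DUX and 339.7 in D4, and Upk3b, at 51.1 FPKM in D4_DUX and 30.6 in D4. The lower ones were the smooth muscle genes Tagln, Cnn1 and Myh11, Tagln averaging 45.1 FPKM in D4_DUX and 76.8 in D4. Smooth muscle and mesothelial genes did not split cleanly. Not past the threshold, but without overlap, smooth muscle Actg2 was higher, at 30.5 FPKM in D4_DUX and 24.3 in D4. Mesothelial Wt1 was lower in the same way, at 2.39 FPKM in D4_DUX and 2.96 in D4, as was smooth muscle Acta2 (288.2 and 349.4). The part of these groups in the members' values was not tested.

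**Figure D3:**
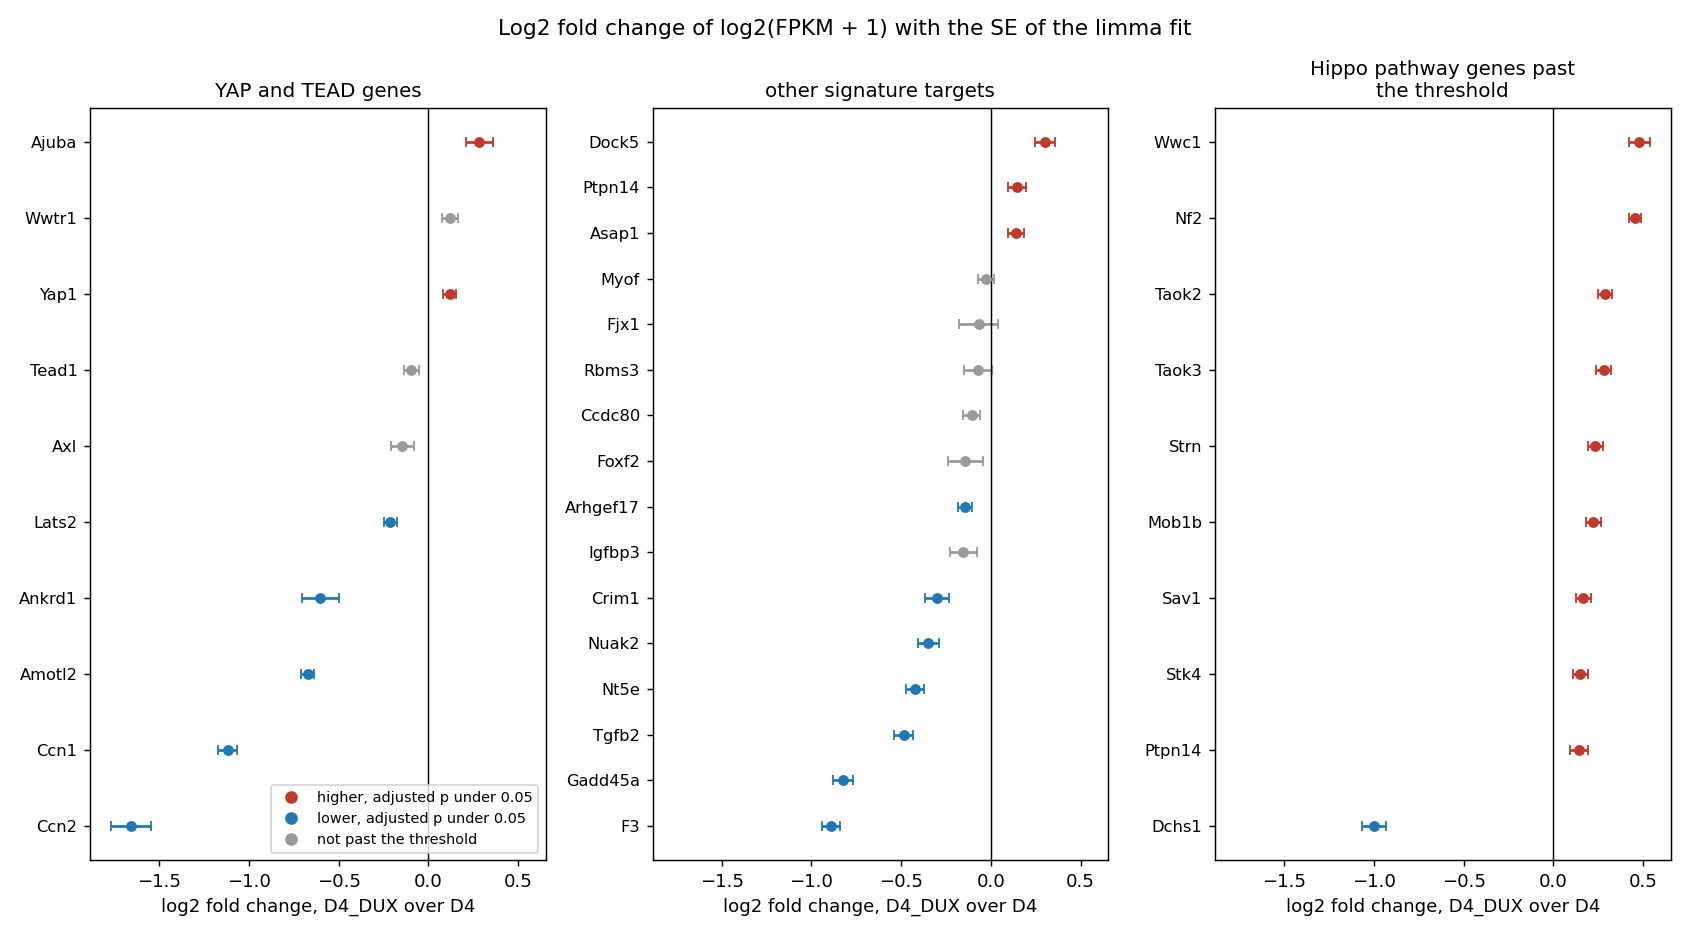
Log2 fold change of D4_DUX over D4 (horizontal axis) with the SE of the fit for the 10 genes (left), 16 other signature targets (middle) and the 10 of 26 other Hippo pathway genes past the threshold (right), coloured by direction where the adjusted p was under 0.05. Ccn2 (-1.66) and Ccn1 (-1.12) lie furthest left, and of the Hippo pathway genes shown 9 lie to the right of 0 and Dchs1 (-1) to the left.

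D4 against MEF sets day 4 of reprogramming, with the control treatment, beside the fibroblasts. Most of the 10 genes were higher in D4: Wwtr1 by 0.85 on the log2 scale (SE 0.05, adjusted p = 2.25e-08), at 60.5 ± 1.25 FPKM in D4 and 33.1 ± 0.797 in MEF. Axl was higher by 0.53 (adjusted p = 2.06e-05), Lats2 by 0.48 (3.48e-07), Amotl2 by 0.47 (5.05e-07), Ccn1 by 0.46 (1.42e-05) and Yap1 by 0.16 (0.00315). Ankrd1 fell by 0.73 (SE 0.10, adjusted p = 6.81e-05). Tead1 fell by 0.13 (SE 0.04, adjusted p = 0.0218), a call lost after rescaling to TPM, with 2 groups in the fit, and without D4 replicate 1 or 2 or MEF replicate 1 (adjusted p 0.052 to 0.0842).

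Ccn2 did not pass, with -0.02 (SE 0.11, adjusted p = 0.91), although Ccn1 did, and its share of the Ccn1 and Ccn2 sum was 26.5 to 28.6% in D4 and 34.3 to 36.3% in MEF. Ajuba did not pass either (-0.12, adjusted p = 0.201). In all, 6 members were higher and 2 lower, where 34.2% of all genes were higher and 27.6% lower, and the median was 0.309 for the members and 0.026 for all genes. This comparison and that of D4_DUX with D4 share the D4 libraries.

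Of the 16 other signature targets, 9 were higher and 6 lower in D4. Ccdc80, a secreted matrix-binding protein, averaged 406.7 FPKM in D4 and 95.1 in MEF (2.09), and Nuak2, a kinase, was higher by 1.05. Hippo pathway genes split evenly, with 10 higher and 9 lower of 26: the scaffold gene Wwc1 was higher by 0.99, the protocadherin Fat4 lower by 1.42 and Amot, a relative of Amotl2, by 0.96. Tead4 averaged 6.51 FPKM in D4 and 0.87 in MEF (2.01, adjusted p = 1.3e-09), which is the change in TEAD composition described above. Alongside, 12 of 13 immediate early genes were higher and 1 lower in D4, and 16 of 16 macrophage markers were lower. Fibroblast markers were higher for 4 and lower for 7 of 12, with sums of 3992 to 4151 FPKM in D4 and 6737 to 6956 in MEF. Epithelial markers were higher for 3 of 9, with sums of 10.9 to 11.9 FPKM in D4 and 5.64 to 5.81 in MEF. Of all genes tested, 34.2% were higher in D4 and 27.6% lower. The counts of higher fibroblast and epithelial markers were thus near the share of all genes. Of the 8 smooth muscle and mesothelial markers, 5 were higher and 2 lower, with sums of 795.1 to 859.6 FPKM in D4 and 908.5 to 1024 in MEF. Msln averaged 339.7 FPKM in D4 and 1.45 in MEF, and Upk3b 30.6 FPKM in D4 and 0.76 in MEF. Mesothelial Wt1 and the smooth muscle genes Cnn1 and Myh11 were also higher in D4. The smooth muscle genes therefore split, since Acta2 and Tagln were the lower ones and Actg2 did not pass. The part of these groups in the members' values was not tested.

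In iPSC the matrix-linked targets were low and Ajuba was high, relative to both MEF and D4. Ccn2 averaged 43.4 ± 7.64 FPKM in iPSC and 174.8 ± 15.9 in MEF, and the log2 fold change was -1.995 (SE 0.11, adjusted p = 8.41e-09). Amotl2 fell by 1.21, Axl by 1.07, Ccn1 by 0.87, Wwtr1 by 0.52 and Lats2 by 0.35 against MEF, each with an adjusted p of 2e-06 or smaller. Ajuba averaged 45.8 ± 1.497 FPKM in iPSC and 11.6 ± 0.758 in MEF (1.89, SE 0.07, adjusted p = 3.68e-10). Ankrd1 went the other way from the remaining targets, at 0.30 (SE 0.10, adjusted p = 0.0177), but its groups overlapped. The call was lost under median-ratio scaling (0.393) and quantile normalization (0.801), and without iPSC replicate 1 or 2 or MEF replicate 1 (0.0654 to 0.0741).

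Direction depended on scaling for a pair of factor genes. Yap1 gave 0.03 (adjusted p = 0.408) and Tead1 0.11 (0.0319) against MEF, whereas median-ratio scaling gave -0.18 and -0.11 and quantile normalization -0.20 and -0.13, all 4 past the threshold. The Tead1 call was also lost after rescaling to TPM and without iPSC replicate 1 or 2 or MEF replicate 2 or 3 (0.0723 to 0.0916). The median of all genes was 0.206 as deposited, 0.038 under median-ratio scaling and -0.068 under quantile normalization, and Yap1 and Tead1 lay below it as deposited. In all, 3 members were higher and 6 lower than in MEF, where 51% of all genes were higher and 31.2% lower. The filter lets in genes that reach an FPKM of 1 in the 3 iPSC libraries alone. Without iPSC replicate 1, 15675 genes were tested, 7176 of them higher and 5292 lower than in MEF, with a median of 0.123. The members' median was -0.435.

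Against D4, all 10 members passed, 3 higher and 7 lower in iPSC, where 48.5% of all genes were higher and 33.9% lower. The median was -1.086 for the members and 0.155 for all genes, or 0.066 for all genes tested without iPSC replicate 1. Ccn2 gave -1.98, Amotl2 -1.68, Axl -1.60, Wwtr1 -1.37, Ccn1 -1.34 and Lats2 -0.83, and Yap1 -0.12. Ajuba was higher by 2.01, Ankrd1 by 1.03 and Tead1 by 0.24, the Tead1 call being lost under both other scalings (adjusted p 0.0851 and 0.0922). These iPSC libraries serve in both comparisons.

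Signature targets were higher for 5 and lower for 10 of 16 against MEF. Against D4 they were higher for 1 and lower for 13, the higher one being Gadd45a (1.83). Of all genes tested, 51% were higher and 31.2% lower against MEF, and 48.5% higher and 33.9% lower against D4. Ccdc80 averaged 6.94 FPKM in iPSC, 406.7 in D4 and 95.1 in MEF. Of 26 Hippo pathway genes, 10 were higher and 14 lower against MEF, with Wwc1 (2.498) among the higher. Tead3 fell by 1.67 and Tead4 was higher by 1.63 against MEF.

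Fibroblast markers were also detected in iPSC. Their sum was 16.3 to 20.2% of the MEF mean, Col1a1 4.84 to 7.25% and Thy1 52.7 to 68.1%, while Dcn, a matrix proteoglycan of fibroblasts, stood at 104.4 to 121.4%. On the same scale Ccn2 was 20.5 to 29.2%, Amotl2 41.3 to 44.5%, Axl 41.6 to 52.4% and Ccn1 51.4 to 56.4%. Replicate 3 was the lowest iPSC library for 12 of 12 fibroblast markers and for 9 of the 10 members. The share of all genes lowest in that library was not counted, so the count cannot be set against a background. Some of these differences were small, as for Yap1 (20.6, 20.2 and 19.7 FPKM) and Tead1 (32.8, 32.6 and 32.2 FPKM). The 8 smooth muscle and mesothelial markers were all lower in iPSC than in MEF and in D4, with sums of 87.7 to 129.4 FPKM in iPSC. The part of these messages in the members' iPSC levels was not tested.

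**Figure D4:**
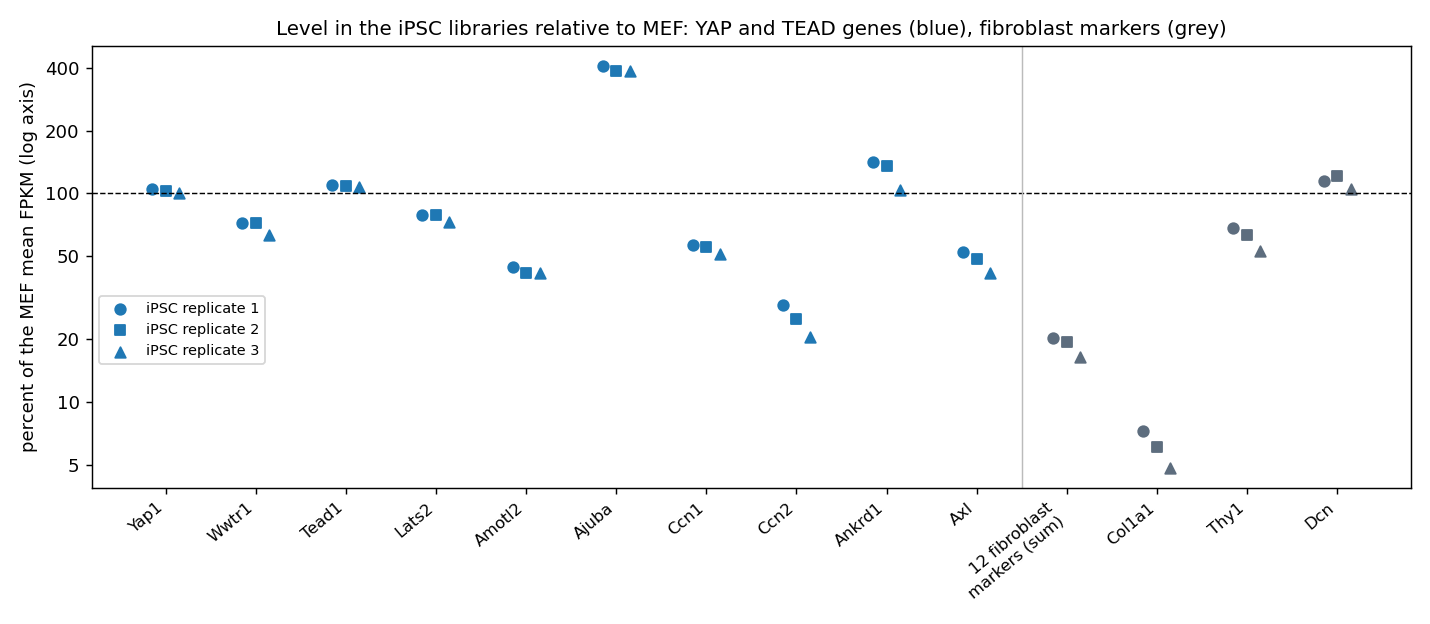
Level in each iPSC library as a percent of the MEF mean FPKM (vertical axis, log scale) for the 10 genes in blue and for fibroblast markers in grey, with 1 symbol per replicate and a dashed line at the MEF mean. Ajuba stands at 384.4 to 408.3% and Ccn2 at 20.5 to 29.2%, near the fibroblast marker sum at 16.3 to 20.2%.

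The genes most like 4 of the members were sought by the smallest root mean square difference of centred log2(FPKM + 1) over the 12 libraries. Among those for Ccn2 were Thbs2 (0.248), Iglon5 (0.260) and Sfrp1 (0.265). Thbs2, which encodes the matrix protein thrombospondin 2, averaged 117.9 FPKM in iPSC, 145.3 in D4_DUX, 333 in D4 and 345.8 in MEF. Ccn1 was most like Lbh (0.0812), which averaged 61.9 FPKM in iPSC, 70.0 in D4_DUX, 144.6 in D4 and 112.1 in MEF. Wwtr1 was nearest to Glt8d2 (0.0599), Emc9, Rnase4 and Ahr, and Yap1 to Zbtb33 (0.0345), Abcd3, Vcp and Ammecr1l. These are descriptions over libraries that share groups.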

How the data were processed

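The authors deposited 1 gene table in FPKM, with 12 library columns and 40384 Ensembl IDs, all columns used. Per the submitters' processing notes the build was mm10, and per the labels' protocols the libraries were stranded, polyadenylated and paired-end. Not given in the sources used here are the aligner, the counter and the use of strand. GENCODE M21 (GRCm38) named 40225 IDs, and promoters came from RefSeq (GRCm38.p6). No 2 libraries were identical (0 pairs), and within groups Pearson's r was 0.9902 to 0.9957.

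Values were analysed as log2(FPKM + 1) for genes that reached an FPKM of 1 in 3 or more libraries, with limma 3.58.1 in R 4.3.3: 4 group means over all 12 libraries, a trended variance prior and Benjamini-Hochberg adjustment over 17114 genes. The script was tested on simulated data. Alternatives were 10 other settings and leaving out each of the 12 libraries. The members and gene lists were chosen with earlier results of these data known. Named were the 10 members, direct relatives, and up to 4 genes per pathway list and comparison with the smallest adjusted p. Some genes that this rule or the likeness measure gives are not reported here.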

Additional observations from a re-analysis of the deposited data

How the results depend on the processing

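Over 10 other settings and 12 left-out libraries, 841 of 880 checks on the 10 genes kept direction and side of the threshold, 24 lost the call, 8 gained it and 7 changed sign. For all named genes the counts were 3239, 44, 21 and 28 of 3332. Calls on Ccn2, Ccn1, Amotl2, Ankrd1 and Lats2 between D4_DUX and D4 kept their direction and call throughout. Counts of all genes called when an FPKM of 5 was asked in 3 or more libraries were 9188 for iPSC over MEF and 9183 for iPSC over D4, against 14068 and 14095, since 10501 genes were then tested. Nuak2, Nt5e and Amot had no value at that filter. Quantile normalization called 1 of 4 TEAD and Vgll genes between D4_DUX and D4, against 0.

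Median-ratio scaling turned the sign for Tead2 (-0.022) and Map4k4 (-0.0036) in D4_DUX over D4, for Yap1 (-0.18), Tead1 (-0.11), Tead2 (-0.090) and Stk3 (-0.17) in iPSC over MEF, and for Lats1 (-0.045) in iPSC over D4. Quantile normalization did so for Tead2 (-0.033), Vgll4 (-0.0045) and Map4k4 (-0.025) in D4_DUX over D4, for Yap1 (-0.20), Tead1 (-0.13), Tead2 (-0.10) and Stk3 (-0.26) in iPSC over MEF, and for Lats1 (-0.11) and Amot (-0.10) in iPSC over D4. The cause was not tested. Of all genes, iPSC over MEF then had 7276 higher and 6633 lower (median-ratio) or 6609 and 7561 (quantile), against 8733 and 5335, and iPSC over D4 6712 and 7664 (quantile), against 8293 and 5802. With 1 library left out, values spanned -0.014 to 0.020 for Tead2, -0.0032 to 0.11 for Tead4, -0.083 to 0.020 for Fat4 and -0.086 to 0.0030 for Myof in D4_DUX over D4, -0.068 to 0.055 for Ccn2 in D4 over MEF, and -0.0013 to 0.054 for Yap1 and -0.019 to 0.065 for Stk3 in iPSC over MEF.

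Same-numbered libraries did not deviate together (18 correlations, -0.146 to 0.07, 0 over 0.1), so the numbers were not taken as pairs. A replicate block called 7, 8, 9 and 10 members in D4_DUX over D4, D4 over MEF, iPSC over MEF and iPSC over D4, as without it, and 5677, 10381, 13974 and 13990 of all genes. With 3 libraries per group, small changes such as those of Yap1 and Tead1 are at the limit of these data.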

Other observations

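Genes of the Fat and Dachsous branch, cell-surface cadherins upstream of the Hippo kinases, differed widely between groups, and they were singled out after their values were seen. Dchs1 averaged 6.97 FPKM in iPSC, 1.85 in D4_DUX, 4.72 in D4 and 14.9 in MEF. Fat4, its receptor, averaged 0.878 FPKM in iPSC, 2.08 in D4_DUX, 2.14 in D4 and 7.40 in MEF. Both fell in D4 relative to MEF, with log2 fold changes of -1.48 for Dchs1 (limma, adjusted p = 5.63e-09) and -1.42 for Fat4 (2.16e-09). Between D4_DUX and D4 Dchs1 fell by a further 1.00 on the log2 scale, while Fat4 gave -0.02 (adjusted p = 0.814). Fjx1, whose counterpart in Drosophila is a Golgi kinase that phosphorylates these cadherins and which is also in the target signature, averaged 5.76 FPKM in iPSC, 5.29 in D4_DUX, 5.59 in D4 and 1.59 in MEF, and was higher in D4 than in MEF by 1.36 (adjusted p = 7.77e-07).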
